A study of Mus musculus with 12 samples.

Results

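The Bcl2 family decides whether the outer mitochondrial membrane stays intact when a cell is under stress, and 10 of its survival and death genes are described here: Bcl2, Bcl2l1, Mcl1, Bax, Bak1, Bcl2l11, Bmf, Bbc3, Pmaip1 and Bid. The list is one of gene names, and all 10 were found by Ensembl identifier in each of 12 RNA count files, which together list 55833 features. Feature lists differ between files, with 55401 features in those of the overexpression set, 54532 in the others and 54100 shared by all. The libraries were made from polyA+ RNA of mouse cells labelled C57BL/6J and fall into 6 groups of 2.

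SSTC3, a small molecule that activates CK1α (casein kinase 1 alpha), was given to cells that were set against cells given DMSO. These 4 libraries carry the labels BMDM, for bone marrow-derived macrophages, and TREX-KO with a number from 1 to 4 that differs in each library, so a TREX knockout is shared by SSTC3 and DMSO cells and the number cannot be told apart from the library. MEF, for mouse embryonic fibroblasts, is the label of the other 8 libraries. CK1a_OV libraries, with CK1α overexpression, were set against OV_control libraries, and CK1a_siRNA libraries, with CK1α knockdown, against knockdown_control libraries. The labels give no dose, time, construct, siRNA sequence or clone number for these groups. The series concerns CK1α and signalling by cGAS and STING.

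As background, the family has survival proteins, pore-forming effectors and BH3-only proteins. The survival proteins (Bcl2, Bcl-xL from Bcl2l1, and Mcl1) bind and hold back the other classes. The effectors Bax and Bak form pores in the outer membrane that release cytochrome c, and the BH3-only proteins (Bim from Bcl2l11, Bmf, Puma from Bbc3, Noxa from Pmaip1, and Bid) carry stress signals by binding survival proteins or, for some, the effectors. Noxa binds Mcl1 in particular, and several BH3-only genes are known to be controlled through their transcription.

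The libraries held 16063627 to 19427506 counts each. Csnk1a1, which encodes CK1α, had 172 and 169 CPM (counts scaled to a common library total) in CK1a_siRNA cells, against 325 and 354 CPM in knockdown_control cells. CK1a_OV cells held 229 and 244 CPM of it, with 238 and 235 CPM in OV_control cells, a log2 fold change of −0.01 ± 0.04 (SE), so the transcript of the overexpressed gene was not measured as higher. SSTC3 cells held 426 and 424 CPM, with 413 and 430 CPM in DMSO cells. Of 21 macrophage markers, 9 had no count in any of the 4 libraries labelled BMDM, among them Adgre1, Itgam, Tyrobp and Aif1, and the list summed to 9.14 to 11.2 CPM there. For 14 fibroblast markers the sum was 8270 to 9321 CPM there and 3564 to 4451 CPM in the libraries labelled MEF, so the label BMDM was not borne out by the markers. Lists for lymphocytes, endothelium and epithelium summed to at most 3.31, 18.4 and 3.19 CPM in any library. Replicates are not stated to be separate cultures, and the p-values therefore reflect a spread between libraries that could be technical. In bulk RNA, fewer cells of a type and less RNA per cell cannot be told apart.

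The widest spans across groups were those of 3 BH3-only genes, Bbc3, Bmf and Pmaip1. Bbc3, on mm10 chromosome 7 (16308393 to 16318205, plus strand, ENSMUSG00000002083), spanned 19.4-fold between its highest group mean, in knockdown_control cells, and its lowest, in DMSO cells. Bmf, on chromosome 2 (118528757 to 118549687, minus strand, ENSMUSG00000040093), spanned 12.7-fold, highest in DMSO and lowest in CK1a_siRNA cells. Pmaip1, on chromosome 18 (66458533 to 66465565, plus strand, ENSMUSG00000024521), ran from 0 counts in all 4 libraries of the overexpression set to a mean of 88.2 CPM in SSTC3 cells. Bcl2l11, on chromosome 2 (128126038 to 128162547, plus strand, ENSMUSG00000027381), spanned 3.18-fold, less than any survival gene, as did Bid, on chromosome 6 (120891930 to 120916853, minus strand, ENSMUSG00000004446), with 3.67-fold.

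Among survival genes, Bcl2 on chromosome 1 (106538178 to 106714274, minus strand, ENSMUSG00000057329) spanned 7.85-fold, Bcl2l1 on chromosome 2 (152780668 to 152831728, minus strand, ENSMUSG00000007659) 6.30-fold and Mcl1 on chromosome 3 (95658788 to 95663176, plus strand, ENSMUSG00000038612) 4.58-fold. The effectors varied least. Bax on chromosome 7 (45461697 to 45466898, minus strand, ENSMUSG00000003873) spanned 2.19-fold and Bak1 on chromosome 17 (27019810 to 27029009, minus strand, ENSMUSG00000057789) 1.85-fold.

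DMSO cells had the lowest group mean for 6 of the 10 members, namely Bcl2, Bcl2l1, Mcl1, Bcl2l11, Bbc3 and Bid. SSTC3 cells, of the same cell set, were next lowest for each of these but Mcl1. The share of all genes lowest in DMSO cells was not taken, so the count is a description. Ordering the 6 groups by level gave 50 neighbouring pairs over the 10 genes, of which 38 had separate library values and 12 overlapped or tied. Within single comparisons, 53.4% to 75.6% of all genes tested had separate groups, so this count is not a result about the members. Pmaip1 counted as separate between CK1a_siRNA and knockdown_control cells on 1 and 0 against 2 and 1 counts. The overlapping neighbours were the OV_control and CK1a_OV levels of Bcl2 and of Bak1, the DMSO and SSTC3 levels of Bcl2l1, and the OV_control and CK1a_siRNA levels of Bcl2l11. For Bax the SSTC3, DMSO and CK1a_OV levels overlapped in turn, as did CK1a_siRNA and knockdown_control. For Bmf the 4 groups labelled MEF ran into each other, and Pmaip1 was at or near 0 in CK1a_OV, OV_control and CK1a_siRNA cells. The labels do not say whether groups of different cell sets were prepared together, so these orders are descriptions with no test.

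**Figure D1:**
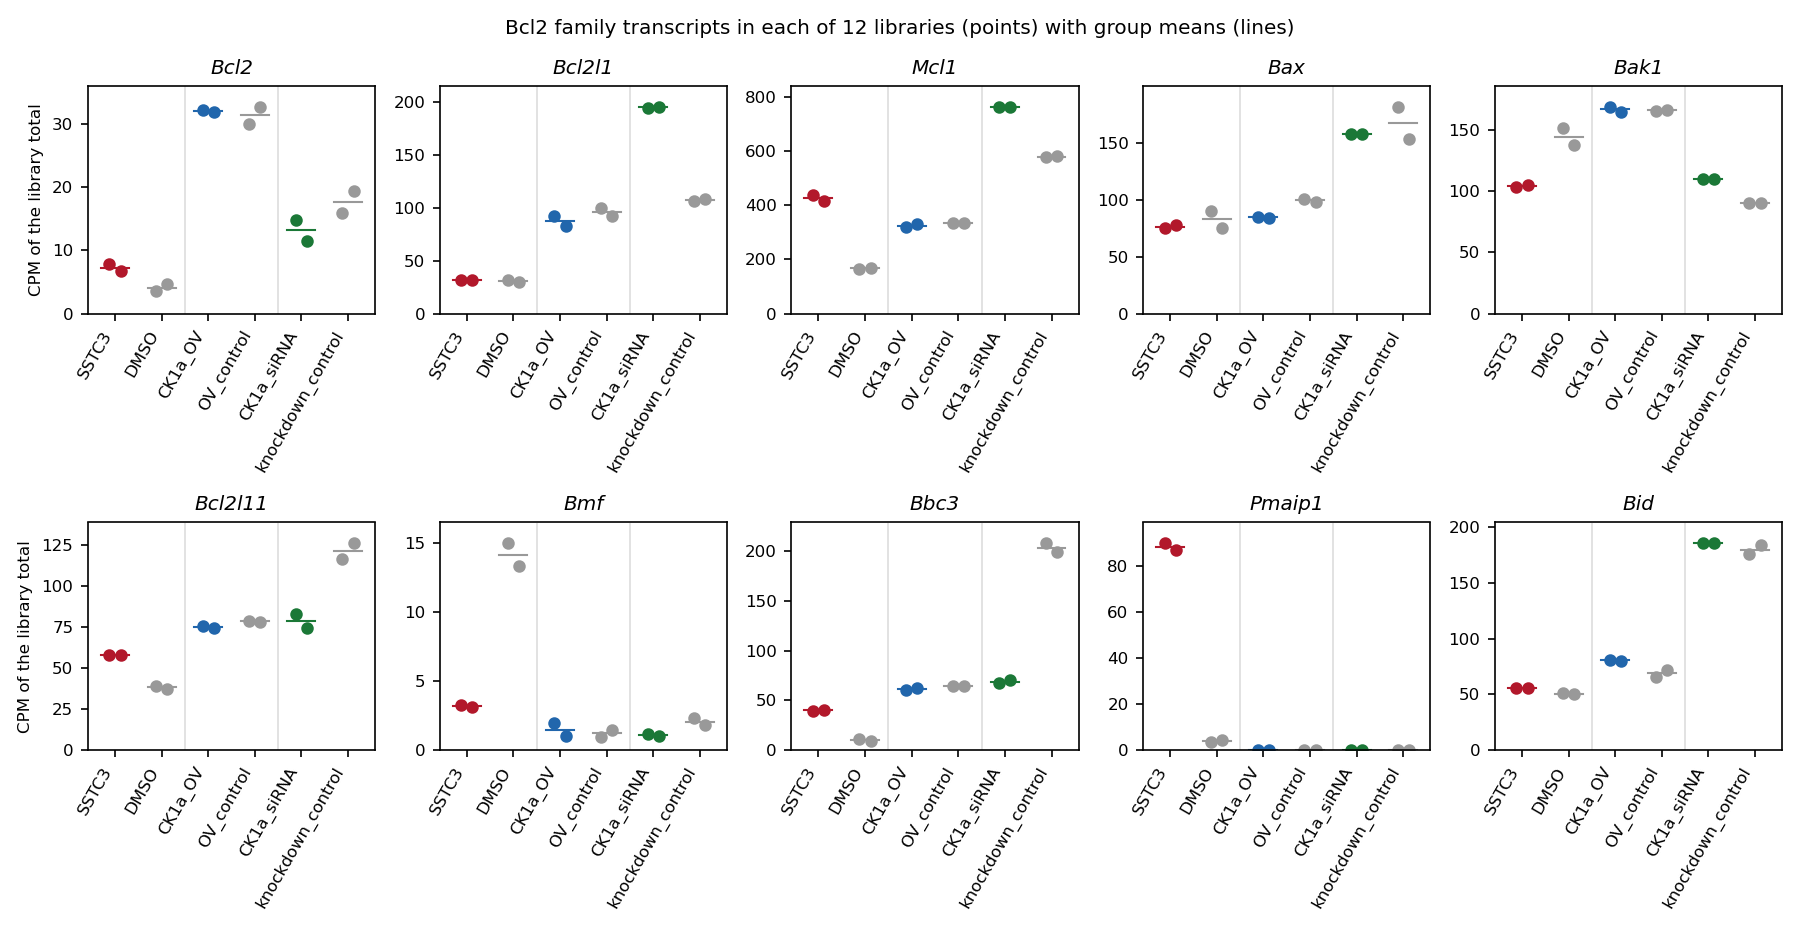
CPM of the library total (linear axis from 0, a scale of its own in each panel) for the 10 genes in the 12 libraries, 1 point a library, with lines at the mean of each group of 2 and each treated or modified group left of its control. SSTC3 cells sit far above DMSO cells for Pmaip1, Bbc3 and Mcl1 and far below for Bmf, and CK1a_siRNA cells sit below knockdown_control cells for Bbc3 and Bcl2l11.

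In SSTC3 cells, Pmaip1 (Noxa), Bbc3 (Puma), Mcl1, Bcl2 and Bcl2l11 (Bim) rose relative to DMSO cells, and Bmf and Bak1 fell. Noxa transcripts changed most, 22.6-fold, and the Mcl1 transcript, whose protein Noxa binds, was 2.66-fold higher in the same libraries. By the quasi-likelihood test of edgeR, with p-values adjusted over all genes tested (threshold 0.05), 8 of the 10 members were called, 6 higher and 2 lower. Among all 14151 genes tested, 53.6% were called, 27.1% higher and 26.5% lower. Scaling by library totals turned that split to 3287 higher and 4427 lower. With a background that high, single calls say little and the sizes of the changes carry the description. The median log2 fold change was 0.43 over the 10 members and 0.01 over all genes.

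Mcl1, a short-lived survival protein, had 437 and 417 CPM in SSTC3 cells, against 166 and 168 CPM in DMSO cells. Its log2 fold change was 1.41 ± 0.04 (SE from the fit, n = 2 libraries per group, adjusted p = 9.44e-97). Bcl2, the founding survival gene of the family, had 7.77 and 6.78 CPM in SSTC3 cells, against 3.52 and 4.63 CPM in DMSO cells, a log2 fold change of 0.89 ± 0.20 (adjusted p = 3.25e-05). Both genes were higher in each SSTC3 library than in either DMSO library, but Bcl2 remained a low transcript. Bcl2l1, the gene of Bcl-xL, had 31.5 and 32.0 CPM in SSTC3 cells and 31.7 and 30.2 CPM in DMSO cells. Its log2 difference of 0.09 ± 0.09 did not pass (adjusted p = 0.396), with an interval of 2 SE from −0.08 to 0.26.

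The effector Bak1 had 104 and 105 CPM in SSTC3 cells, against 151 and 138 CPM in DMSO cells, a log2 fold change of −0.42 ± 0.05 (adjusted p = 1.76e-13). Both SSTC3 libraries were below both DMSO libraries. Bax had 74.8 and 77.7 CPM in SSTC3 cells and 90.0 and 75.6 CPM in DMSO cells, with overlap between the groups, and did not pass (log2 −0.06 ± 0.06, adjusted p = 0.395). Without DMSO replicate 2 the Bax value was −0.19 and passed (adjusted p = 0.0185), and over all 10 alternatives its adjusted p ran from 0.0185 to 0.761.

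Of the 5 BH3-only genes, 4 were higher and 1 was lower. Pmaip1 had 89.7 and 86.7 CPM in SSTC3 cells, against 3.69 and 4.39 CPM in DMSO cells. Its log2 fold change of 4.50 ± 0.10 (adjusted p = 2.48e-118) ranked 65th by size among the 14151 genes. Bbc3 had 39.6 and 40.1 CPM in SSTC3 cells, against 11.6 and 9.38 CPM in DMSO cells, a log2 fold change of 1.98 ± 0.11 (3.95-fold, adjusted p = 1.52e-48). Both genes are known in mouse and human as targets of p53 and of stress pathways, and both stood well clear of the DMSO libraries. Bcl2l11 had 57.8 and 57.9 CPM in SSTC3 cells, against 39.2 and 37.0 CPM in DMSO cells, a log2 fold change of 0.66 ± 0.07 (adjusted p = 7.5e-16).

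Bmf, whose protein is known for binding the dynein light chain DLC2, moved the other way. It had 3.30 and 3.13 CPM in SSTC3 cells, against 15.0 and 13.4 CPM in DMSO cells, from 56 and 53 counts in SSTC3 libraries and 256 and 225 in DMSO libraries. Its log2 fold change was −2.09 ± 0.18, or 0.236 times the DMSO level (adjusted p = 5.83e-25). Bid, which links death receptors to mitochondria once caspase-8 cleaves it, had 56.2 and 55.7 CPM in SSTC3 cells and 51.1 and 50.0 CPM in DMSO cells. The call of 0.20 ± 0.07 (log2, adjusted p = 0.00911) was lost in 4 of 10 alternatives, among them without SSTC3 replicate 1 (adjusted p = 0.0584) and without DMSO replicate 2 (0.0685), within a range of 0.00701 to 0.148. The other 7 calls held in all 10. Beside these values, the macrophage markers summed to 11.2 and 11.1 CPM in SSTC3 cells and 9.38 and 9.14 CPM in DMSO cells, and the fibroblast markers to 8270 and 8351 CPM in SSTC3 cells and 9321 and 9025 CPM in DMSO cells, and their part in the results was not tested. Fibroblast markers did not move as one, since Vim was higher, at 2936 and 2919 CPM in SSTC3 cells and 2574 and 2531 CPM in DMSO cells.

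With CK1α overexpression, transcripts of the family hardly moved. Bax was lower and Bid was higher in CK1a_OV than in OV_control cells, both by under 0.26 on the log2 scale, and the other 7 members tested did not pass. That makes 2 of 9 called, beside 13.3% of the 13958 genes tested (5.78% higher, 7.57% lower). By library totals the split was 984 higher and 943 lower. The median log2 fold change was −0.05 over the 9 members and 0.00 over all genes. Since Csnk1a1 itself was not measured as higher in these libraries, directions here are those of the libraries labelled overexpression.

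Bax had 84.8 and 84.0 CPM in CK1a_OV cells, against 101 and 98.1 CPM in OV_control cells, a log2 fold change of −0.25 ± 0.05 (adjusted p = 0.000297) that passed in all 10 alternatives. Bid had 81.0 and 80.0 CPM in CK1a_OV cells, against 65.7 and 71.9 CPM in OV_control cells, a log2 fold change of 0.21 ± 0.06 (adjusted p = 0.00691). Without OV_control replicate 1 the Bid value was 0.15 and did not pass (adjusted p = 0.206, range over the alternatives 0.00265 to 0.206), and DESeq2 did not call it either (0.122). Bid shares 17.7% of its exon length with Bcl2l13 on the opposite strand, and the strand setting of the counting is not given, so part of its reads cannot be told apart from those of Bcl2l13.

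The survival genes showed small differences. Bcl2l1 had 92.1 and 83.1 CPM in CK1a_OV cells and 99.8 and 92.5 CPM in OV_control cells, a log2 difference of −0.15 ± 0.05 that narrowly missed the threshold (adjusted p = 0.0554). Without CK1a_OV replicate 1 it was −0.23 (adjusted p = 0.00556) and without OV_control replicate 2 it was −0.20 (0.0259), within a range of 0.00556 to 0.544. Mcl1 had 318 and 332 CPM in CK1a_OV cells and 335 and 333 CPM in OV_control cells (log2 −0.05 ± 0.03, adjusted p = 0.313). Bcl2 had 32.2 and 31.8 CPM in CK1a_OV cells and 30.1 and 32.7 CPM in OV_control cells (0.01 ± 0.09, adjusted p = 0.946).

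The remaining members gave narrow intervals around 0, except Bmf. Bak1 had 169 and 165 CPM in CK1a_OV cells and 166 in both OV_control libraries, with a log2 interval of 2 SE from −0.09 to 0.07. Bbc3 had 60.6 and 62.0 CPM in CK1a_OV cells and 64.3 and 63.9 CPM in OV_control cells, with an interval from −0.20 to 0.04. For Bcl2l11 the values were 75.7 and 74.2 CPM in CK1a_OV cells and 78.7 and 77.9 CPM in OV_control cells, with an interval from −0.19 to 0.03. Changes of the size seen with SSTC3 lay outside these intervals. Bmf had only 33 and 17 counts in CK1a_OV libraries and 17 and 25 in OV_control libraries, so its interval from −0.57 to 1.12 leaves smaller changes of either sign undetectable at this depth, while the SSTC3 value of −2.09 lies outside it. Pmaip1 had 0 counts in all 4 libraries, which allows up to 0.179 CPM in each CK1a_OV library and up to 0.173 and 0.174 CPM in OV_control libraries, by counting error alone. The fibroblast markers summed to 3895 and 3901 CPM in CK1a_OV cells and 4451 and 4412 CPM in OV_control cells, and their part in the Bax and Bid values was not tested.

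With CK1α knockdown, Bbc3 and Bcl2l11 fell and Bcl2l1, Mcl1 and Bak1 rose. Puma transcripts fell to 0.347 times the knockdown_control level, and the Bcl-xL transcript was 1.85-fold higher. In all, 6 of 9 members tested were called, 3 higher and 3 lower, beside 54.7% of the 14832 genes tested (28.3% higher, 26.4% lower), or 3868 higher and 4221 lower by library totals. The members' count is thus near the background. The median log2 fold change was −0.05 over the 9 members and −0.01 over all genes.

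Bcl2l1 had 194 and 196 CPM in CK1a_siRNA cells, against 107 and 109 CPM in knockdown_control cells, a log2 fold change of 0.89 ± 0.05 (adjusted p = 8.54e-24). Mcl1 had 764 CPM in both CK1a_siRNA libraries, against 578 and 581 CPM in knockdown_control cells, a log2 fold change of 0.43 ± 0.04 (1.35-fold, adjusted p = 1.15e-14). Replicates of both genes lay within a few percent of each other, and the groups did not overlap. Bcl2 had 14.8 and 11.5 CPM in CK1a_siRNA cells, against 15.9 and 19.4 CPM in knockdown_control cells, a log2 fold change of −0.40 ± 0.13 (adjusted p = 0.00894). That call was lost without CK1a_siRNA replicate 2 (−0.22, adjusted p = 0.265) and without knockdown_control replicate 2 (−0.24, 0.175), within a range over the alternatives of 0.000606 to 0.265.

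Bak1 had 110.3 and 109.7 CPM in CK1a_siRNA cells, against 90.1 and 90.3 CPM in knockdown_control cells, a log2 fold change of 0.32 ± 0.06 (1.25-fold, adjusted p = 2.49e-06). Bax had 158 CPM in both CK1a_siRNA libraries and 182 and 153 CPM in knockdown_control cells, which overlapped, and did not pass (log2 −0.05 ± 0.06, adjusted p = 0.504). Without knockdown_control replicate 2 it was −0.17 and passed (adjusted p = 0.00124, range 0.00124 to 0.763).

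Among the BH3-only genes, 2 of the 4 tested fell and none rose. Bbc3 had 67.3 and 70.2 CPM in CK1a_siRNA cells, against 208 and 199 CPM in knockdown_control cells, a log2 fold change of −1.53 ± 0.05 (adjusted p = 2.03e-34). Bcl2l11 had 82.7 and 74.1 CPM in CK1a_siRNA cells, against 116 and 126 CPM in knockdown_control cells, a log2 fold change of −0.59 ± 0.06 (0.663 times the control level, adjusted p = 4.59e-13). Both groups were separate for both genes. Bid had 186 CPM in both CK1a_siRNA libraries and 176 and 184 CPM in knockdown_control cells and did not pass (0.08 ± 0.05, adjusted p = 0.163), although it did without knockdown_control replicate 2 (0.11, adjusted p = 0.042, range 0.042 to 0.518). Bmf had 23 and 20 counts in CK1a_siRNA libraries, against 37 and 32 in knockdown_control libraries, a log2 value of −0.83 ± 0.40 (adjusted p = 0.0698) with an interval too wide to place it. Pmaip1 had 1 and 0 counts in CK1a_siRNA libraries and 2 and 1 in knockdown_control libraries and could not be tested. Calls for Bcl2l1, Mcl1, Bak1, Bcl2l11 and Bbc3 held in all 10 alternatives. The macrophage list summed to 310 and 306 CPM in CK1a_siRNA cells and 261 and 256 CPM in knockdown_control cells, of which Cd68 made 296 and 295 CPM in CK1a_siRNA cells and 252 and 246 CPM in knockdown_control cells. C1qa, C1qb and C1qc were at 0 counts in all 4 libraries. Fibroblast markers summed to 4184 and 4278 CPM in CK1a_siRNA cells and 3614 and 3564 CPM in knockdown_control cells, a difference carried by Vim. Without Vim they summed to 719 and 722 CPM in CK1a_siRNA cells and 944 and 927 CPM in knockdown_control cells, and Pdgfrb had 98.9 and 96.6 CPM in CK1a_siRNA cells and 230.2 and 236 CPM in knockdown_control cells. Dcn, Lum and Twist1 were at 0 counts in all 4 libraries, and the part of these shifts in the members' values was not tested.

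**Figure D2:**
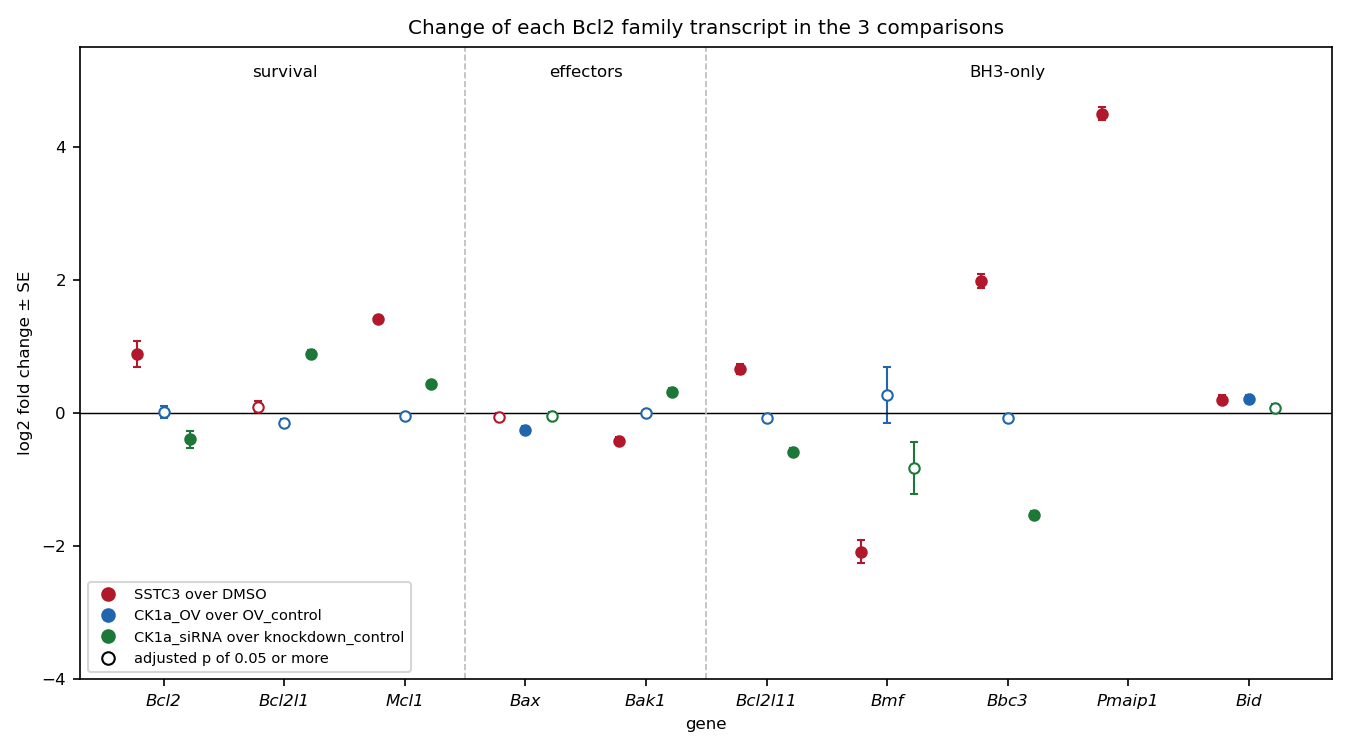
Log2 fold change of each member (edgeR, bars of 1 SE, open points where the adjusted p was 0.05 or more) for SSTC3 over DMSO, CK1a_OV over OV_control and CK1a_siRNA over knockdown_control, in groups by role. Bbc3 and Bcl2l11 lie above 0 for SSTC3 and below 0 for knockdown, while Mcl1 lies above 0 in both, and the overexpression values stay near 0.

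The 3 comparisons share no library, so their effects could be set against each other in 1 fit of all 12 libraries, as contrasts of log2 fold changes adjusted over the 17105 features tested. Between SSTC3 and knockdown, 7 of the 9 members differed, beside 45.1% of all features. Bbc3 differed most, by 3.54 ± 0.11 (adjusted p = 7.89e-49), followed by Bcl2 at 1.32 ± 0.22 (2.43e-07) and Bcl2l11 at 1.28 ± 0.09 (1.31e-22). These 3 genes were called in opposite directions, higher with SSTC3 and lower with knockdown, although the knockdown call of Bcl2 was lost in the alternatives given above. Bak1 was opposed in the other sense, lower with SSTC3 and higher with knockdown, with a difference of −0.71 ± 0.07 (adjusted p = 1.5e-14). Mcl1 was called higher in both, by 1.01 ± 0.05 more with SSTC3 (adjusted p = 3.1e-30), and Bcl2l1 had the larger effect with knockdown, a difference of −0.77 ± 0.09 (6.7e-12). Bmf differed by −1.23 ± 0.42 (adjusted p = 0.0114). For Bax (0.02 ± 0.10, adjusted p = 0.969) and Bid (0.15 ± 0.08, 0.112) no difference was called. SSTC3 and knockdown were applied to cells with different labels, BMDM and TREX-KO against MEF. Agent, genotype and cells therefore cannot be told apart in these differences.

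SSTC3 and overexpression differed in 7 of 9 members, beside 32.7% of features. That count fell to 6 with RLE factors or library totals and ran from 6 to 8 with each library left out in turn, and Bcl2l1 was marginal (0.24 ± 0.09, adjusted p = 0.044). Bbc3 (2.06, adjusted p = 9.97e-30), Mcl1 (1.46, 9.91e-41) and Bmf (−2.36 ± 0.43, 3.82e-06) led by size, and Bax and Bid again were not called. Labels differ here too, BMDM and TREX-KO against MEF, so agent, genotype and cells cannot be told apart. Overexpression and knockdown, both in cells labelled MEF, differed in 6 of 9, beside 35.1% of features. Among the members called there, Bbc3 differed most, at 1.48 (adjusted p = 1.67e-27), ahead of Bcl2l1 at −1.01 (4e-20). Bax, Bid and Bmf (1.14 ± 0.49) were not called. The count ran from 5 to 8 with each library left out, and for SSTC3 against knockdown from 6 to 7. The 2 sets labelled MEF were unlike in their controls, with Twist1 at 29.9 and 32.1 CPM in OV_control cells and at 0 counts in knockdown_control cells, and Cd68 at 7.96 and 6.69 CPM in OV_control cells and 252 and 246 CPM in knockdown_control cells. Manipulation and cells cannot be told apart in this difference either.

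To set genes against each other, counts were expressed as CPM per kilobase of annotated exon. On that scale Mcl1 ranked 1st of the 10 members by group mean in every group but DMSO, where it ranked 3rd behind Bak1 and Bax. The DMSO libraries disagreed on Bax and Mcl1, with 57.1 and 48.0 CPM per kb of Bax and 48.5 and 49.2 of Mcl1. Summed over Bcl2, Bcl2l1 and Mcl1, survival transcripts came to 135.5 and 129.7 CPM per kb in SSTC3 cells, against 55.8 and 56.3 in DMSO cells. Mcl1 made up 94.3% and 94.1% of that sum in SSTC3 cells and 86.9% and 87.4% in DMSO cells. BH3-only transcripts came to 75.1 and 74.1 CPM per kb in SSTC3 cells, against 28.9 and 27.3 in DMSO cells. Both sums were higher in each SSTC3 library than in either DMSO library. The ratio of survival to BH3-only members was 1.80 and 1.75 in SSTC3 cells and 1.93 and 2.06 in DMSO cells. These sums leave out the BH3-only gene Bad, with 13.6 and 15.4 CPM per kb in SSTC3 cells and 18.1 and 17.3 in DMSO cells. They also leave out the family gene Bcl2l2, at 4.63 and 4.36 in SSTC3 cells and 4.78 and 4.44 in DMSO cells. Which group has the higher ratio therefore depends on the genes summed.

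The make-up of the BH3-only sum did shift. Pmaip1 held 43.7% and 42.8% of it in SSTC3 cells, against 4.67% and 5.90% in DMSO cells. Bid held 21.1% and 21.2% in SSTC3 cells, against 49.8% and 51.7% in DMSO cells, and Bmf 0.836% and 0.803% in SSTC3 cells, against 9.88% and 9.33% in DMSO cells. Among the 5 BH3-only members, the main transcript per length was thus Pmaip1 in SSTC3 cells and Bid in DMSO cells. Bad, a BH3-only gene outside the members, lay above Bid in DMSO cells, at 18.1 and 17.3 CPM per kb against 14.4 and 14.1. The ratio of Bax to Bak1 per length was 1.10 and 1.13 in SSTC3 cells and 0.908 and 0.838 in DMSO cells.

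In the knockdown set, the sums of the 2 classes differed in opposite directions. Survival transcripts summed to 267 CPM per kb in both CK1a_siRNA libraries, against 194 and 196 in knockdown_control cells, and BH3-only transcripts to 94.5 and 94.8 in CK1a_siRNA cells, against 162 in both knockdown_control libraries. The ratio of survival to BH3-only transcripts was therefore 2.83 and 2.82 in CK1a_siRNA cells and 1.20 and 1.21 in knockdown_control cells. Bbc3 held 33.5% and 34.9% of the BH3-only sum in CK1a_siRNA cells, against 60.2% and 58.0% in knockdown_control cells. Mcl1 held 83.6% of the survival sum in both CK1a_siRNA libraries and 87.1% and 86.8% in knockdown_control cells. These sums thus follow Mcl1 and Bbc3 most and not each member, as Bcl2 was called lower and Bid did not pass. In CK1a_OV cells the ratio was 1.91 and 1.94, against 2.09 and 2.01 in OV_control cells. Bad, which is left out, had 13.2 and 11.5 CPM per kb in CK1a_OV cells and 13.0 and 14.2 in OV_control cells. For Bcl2l2 the values were 13.6 in both CK1a_OV libraries and 12.9 in both OV_control libraries. Whether these groups are separate in the ratio therefore depends on the genes summed. The sums and ratios count transcripts, not proteins, and leave out Bad and Bcl2l2. They are given with no test, as descriptions of the chosen members.

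**Figure D3:**
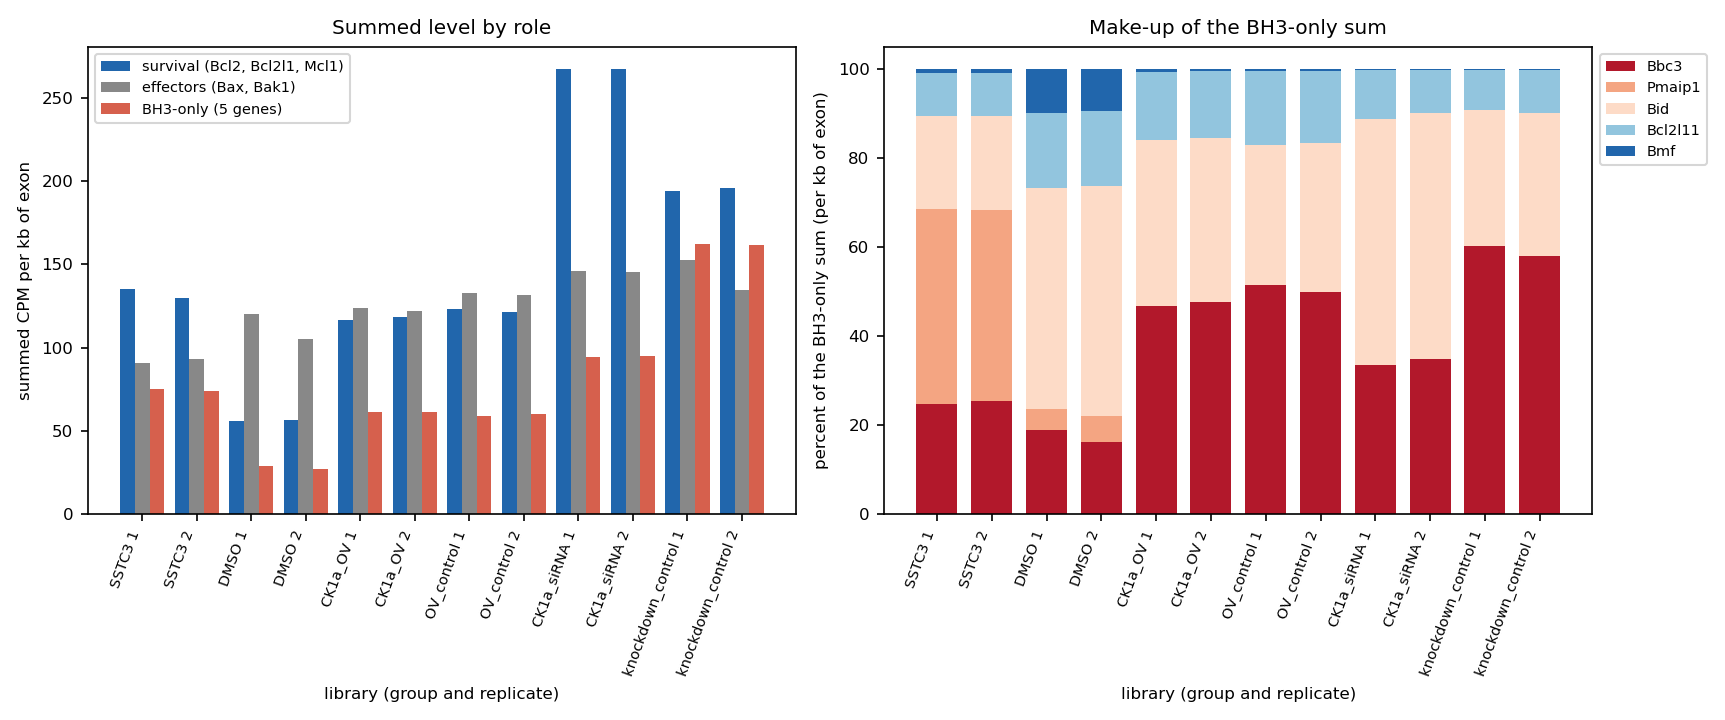
Left, summed CPM per kilobase of exon for the survival genes, the effectors and the BH3-only genes, as bars for each library. Right, the percent of the BH3-only sum held by each of its 5 genes. Survival and BH3-only sums are both higher in SSTC3 than in DMSO cells, while in CK1a_siRNA cells the survival sum is above and the BH3-only sum below knockdown_control.

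Other genes of the pathway were taken as 4 lists by function. With SSTC3, none of 7 tested other Bcl2 family genes was higher and 3 were lower, namely Bcl2l12 (log2 −0.50 ± 0.15), Bad (−0.23 ± 0.08), a BH3-only gene, and Bok (−0.20 ± 0.06), an effector-like member. Of 15 apoptosome and caspase genes, 7 were higher and 2 lower (median 0.20). Diablo, an antagonist of caspase inhibitors, was higher by 0.81 ± 0.16 and Apaf1, the scaffold of the apoptosome, by 0.51 ± 0.08. Birc6, a caspase inhibitor, was lower (−0.55 ± 0.04), as was the mitochondrial flavoprotein gene Aifm1 (−0.57 ± 0.06). Among 8 tested death receptor genes, 5 were higher and 1 lower (median 0.27), with Fas at 1.41 ± 0.17 and Tnfrsf10b, the mouse TRAIL receptor, at 0.49 ± 0.06, against Tnfrsf1a, a TNF receptor, at −0.44 ± 0.06.

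The list of 12 regulators had 6 higher and 2 lower with SSTC3 (median 0.28). Ddit3, which encodes the stress factor CHOP, had 107 and 109.5 CPM in SSTC3 cells, against 22.6 and 21.6 CPM in DMSO cells, a log2 fold change of 2.35 ± 0.07 (adjusted p = 1.35e-92). Foxo3, a forkhead transcription factor, had 58.4 and 62.9 CPM in SSTC3 cells, against 34.4 and 32.9 CPM in DMSO cells (0.91 ± 0.07, adjusted p = 6.85e-26). Atf4, upstream of CHOP in the integrated stress response, was higher by 0.80 ± 0.04, and Dynll1, a dynein light chain that binds Bim, by 0.55 ± 0.04. Huwe1, a ubiquitin ligase known to act on Mcl1, was lower (−0.34 ± 0.04).

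Knockdown gave the opposite sign for both of these factors. Ddit3 had 54.2 and 51.0 CPM in CK1a_siRNA cells, against 209 and 192 CPM in knockdown_control cells (−1.89 ± 0.06, adjusted p = 6.41e-38), and Foxo3 had 27.5 and 20.4 CPM in CK1a_siRNA cells, against 49.4 and 52.6 CPM in knockdown_control cells (−1.05 ± 0.10, 2.31e-12). Of 11 tested regulators, 2 were higher and 5 lower (median −0.08). The higher ones were Fbxw7 (1.31 ± 0.10), part of another ligase for Mcl1, and Vdac1 (0.64), an outer membrane channel, and Trp53 was lower (−0.43 ± 0.05). Other Bcl2 family genes had 2 higher, the mitophagy receptors Bnip3l (0.76) and Bnip3 (0.59), and 3 lower, Bad (−0.32), Bcl2l2 (−0.28) and Bcl2l13 (−0.18). The caspase list had 4 higher and 3 lower of 14 (median 0.03), with Casp6 (1.13) and Casp2 (0.74) among those higher. Death receptor genes had 5 higher and 2 lower of 9 (median 0.40), led by Tnfsf10, the gene of TRAIL, with 10.5 CPM in CK1a_siRNA cells and 0.563 CPM in knockdown_control cells (TMM-scaled means, log2 4.22 ± 0.29). Ripk1 (1.10), Tnfrsf1a (0.74) and Tradd (0.65) were higher too, and the adaptor gene Fadd was lower (−0.79).

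With overexpression, 8 of the 41 tested genes on these lists were called, 4 higher and 4 lower. In the family list Bnip3l was higher (0.14 ± 0.04) and Bok lower (−0.25 ± 0.07). In the caspase list Aifm1 (−0.20), Apaf1 (−0.21) and Htra2 (−0.19) were lower, and in the receptor list Ripk1 (0.19) was higher. Ddit3 (0.23 ± 0.06, adjusted p = 0.00483) and Atf4 (0.12 ± 0.03) were higher among the regulators. In each comparison the shares called are to be read beside the background given above.

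**Figure D4:**
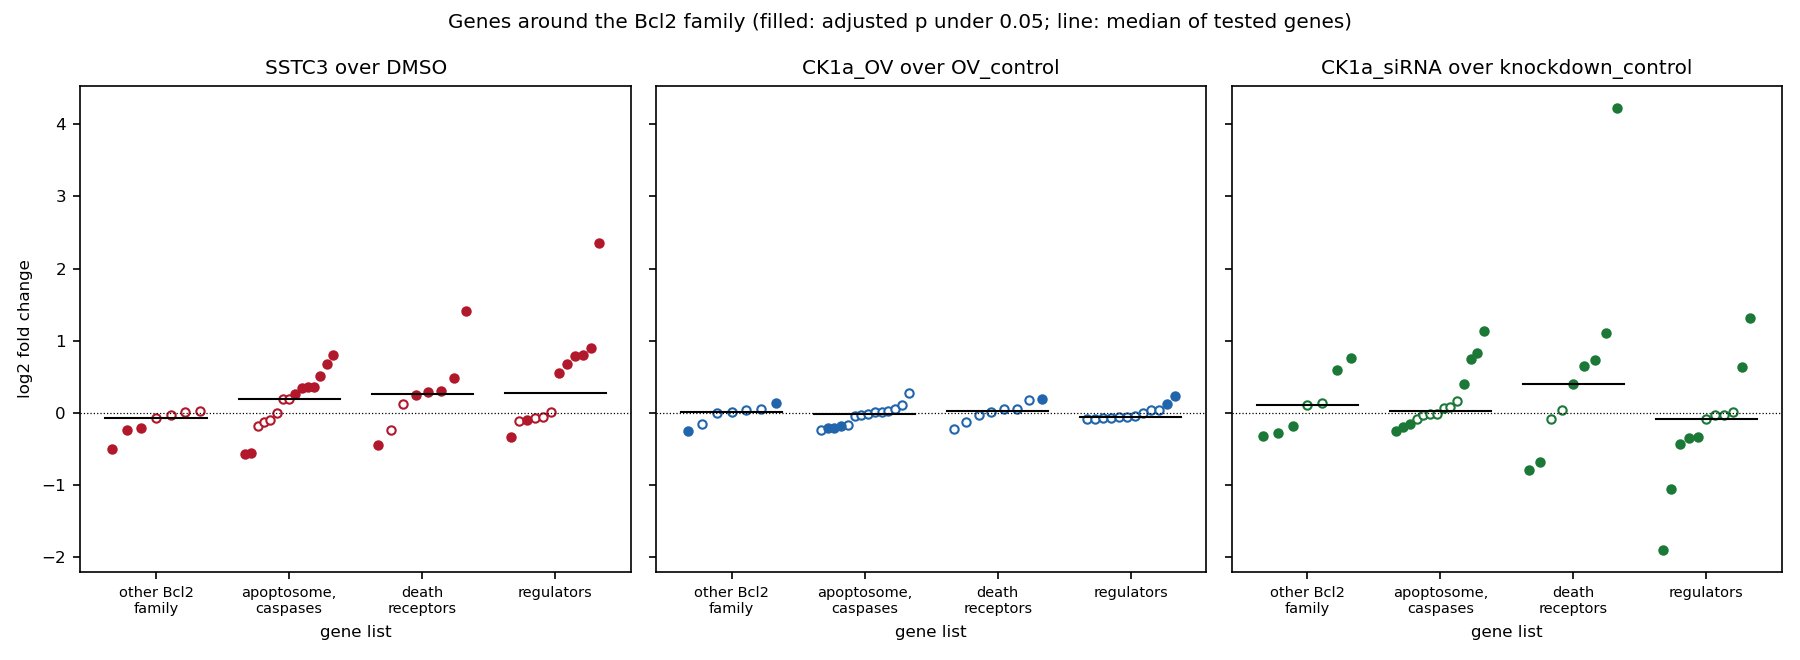
Log2 fold change of the genes on the 4 pathway lists in the 3 comparisons, 1 point a gene, filled where the call passed an adjusted p of 0.05. Lines mark the median of each list. Ddit3 is the top SSTC3 point (2.35) and the lowest knockdown point (−1.89), Tnfsf10 is the top knockdown point (4.22), and points for overexpression gather near 0.

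The promoter windows of the members were searched on both strands for 8 motifs of stress and survival factors. Windows of 300 bases (250 before and 50 after each RefSeq start, build GRCm38.p6) were searched for 9 members, 16 windows in all. Pmaip1 was left out of this search, so the counts below do not cover it. NF-kB matches stood in 3 of the 16 windows, of Bcl2l1, Bmf and Bbc3, beside 4.51% of all 32851 windows of this kind. The p53 half-site stood in 2, of Bax and Bmf (8.36% of all), the E-box CACGTG in 2, of Bax and Bbc3 (7.15%), and the FOXO sequence TGTTTAC in 2, of Bcl2l11 and Bbc3 (3.65%). No member window held AP-1 (TGANTCA, in 7.81% of all windows), CRE (TGACGTCA, 1.79%), EGR (GCGTGGGCG, 0.61%) or ATF4 (TGATGNAAT, 0.96%), and the windows of Bcl2, Mcl1, Bak1 and Bid held none of the 8. With so few windows these counts are descriptions, and none was tested against the expression values.

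Windows of the BH3-only genes Bcl2l11 and Bbc3, called in opposite directions with SSTC3 and knockdown, are shown 5′ to 3′ on the plus strand, with motif matches in capitals. They are chr2:128125788-128126087 for Bcl2l11, with the FOXO match GTAAACA (the reverse complement) 227 bases before the start site, and 2 of the 3 Bbc3 windows. The first of these, chr7:16309333-16309632, holds overlapping NF-kB matches 137 and 136 bases before its start, and the second, chr7:16310011-16310310, holds the FOXO match 167 bases before its own. The other Bcl2l11 window, chr2:128127325-128127624, held no match and is not shown.
Bcl2l11: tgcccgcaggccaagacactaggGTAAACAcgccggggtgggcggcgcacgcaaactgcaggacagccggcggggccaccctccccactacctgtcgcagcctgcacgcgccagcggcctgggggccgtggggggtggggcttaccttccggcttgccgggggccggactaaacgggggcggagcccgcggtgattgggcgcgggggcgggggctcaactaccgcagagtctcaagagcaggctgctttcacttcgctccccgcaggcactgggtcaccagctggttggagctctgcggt
Bbc3, first: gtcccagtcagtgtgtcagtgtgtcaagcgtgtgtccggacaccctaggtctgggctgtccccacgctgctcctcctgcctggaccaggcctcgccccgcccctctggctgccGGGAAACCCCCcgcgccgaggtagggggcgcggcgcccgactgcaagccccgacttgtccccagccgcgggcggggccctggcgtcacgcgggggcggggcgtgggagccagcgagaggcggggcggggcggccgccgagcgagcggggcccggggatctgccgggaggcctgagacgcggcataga
Bbc3, second: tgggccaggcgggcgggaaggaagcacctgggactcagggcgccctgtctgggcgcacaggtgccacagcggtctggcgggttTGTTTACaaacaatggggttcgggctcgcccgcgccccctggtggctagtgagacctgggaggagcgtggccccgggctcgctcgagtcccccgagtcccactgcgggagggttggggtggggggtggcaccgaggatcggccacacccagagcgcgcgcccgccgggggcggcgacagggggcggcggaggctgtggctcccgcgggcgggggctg
A match describes letters in the window and is not a measured binding site. No different motifs shared bases in the printed windows.

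For each member but Pmaip1, which was not tested in all 3 comparisons, the gene with the most similar pattern was found. Pearson correlation over the 12 libraries was used, among 10415 genes. Values were log2(CPM + 0.5) with the mean of each comparison's 4 libraries subtracted. Bbc3 was closest to Traf1 (r = 0.998), Mcl1 to Hsp90aa1 (0.996) and Bcl2l1 to Uba7 (0.995). Bcl2l11 was closest to Dnajb4 (0.989), Bak1 to Kank2 (0.986) and Bmf to Adam15 (0.982). The lowest of these maxima were Bax with Tspo (0.957), Bid with Rps3a3 (0.957) and Bcl2 with Dck (0.953). These are descriptions of 12 points that share libraries, depth and the 3 pairs of groups, with no test.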

How the data were processed

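The authors deposited raw read counts per gene for each library, made with HISAT2 and featureCounts on mm10, per the submitters' processing notes. Neither versions nor the strand setting are given in the sources used here. Ensembl identifiers were matched to GENCODE M21 symbols, leaving 123 features without one in the SSTC3 and knockdown files and 260 in the overexpression files. The 4 libraries of a comparison were tested by themselves with edgeR 4.0.16 in R 4.3.3 (filterByExpr, TMM factors, robust quasi-likelihood F test), with p-values adjusted by Benjamini and Hochberg over all genes tested. The SE is the absolute log2 fold change divided by the square root of F. Residual degrees of freedom were 2 per fit. Median prior degrees of freedom, borrowed from the spread of all genes, were 256.6 for SSTC3, 51.18 for overexpression and 59.48 for knockdown. The smallest p-values rest on that borrowing more than on the 2 libraries of a group. CPM in the text is by library total unless stated. The procedure was tested on simulated counts. Replicate pairs had a chi-square of 2.29 to 3.61 per degree of freedom, so none was a copy. Members, lists and tests were chosen with earlier results of these data known. Named genes are all members, Csnk1a1, up to 5 genes with the smallest adjusted p per pathway list and comparison, and the gene most like each member but Pmaip1. Some genes that this rule takes are not reported here. Alternatives were DESeq2 1.42.0, RLE factors, library totals, no filter, a fit of all 12 libraries, a replicate block and leaving out each library. Exon overlaps with opposite-strand genes cover 17.7% of Bid and 25.5% of Bak1, where the Bak1 partner Ggnbp1 had no more than 4.13 CPM.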

Additional observations from a re-analysis of the deposited data

How the results depend on the processing

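No called member changed sign under any alternative run, and of the members' values 263 kept their side of the threshold, 9 lost it and 7 gained it. Counts for overexpression moved most: 529 genes were called with DESeq2 and 1188 in the edgeR fit of all 12 libraries, against 1863. DESeq2 gave adjusted p-values to 7131 genes there, not 13958, and called 1 of the 8 members that had one. Leaving out 1 library at a time gave 1065 to 1478 genes and 1 to 3 members there, with the lowest count, and 1 member, without OV_control replicate 1. For knockdown it gave 6629 to 7562 genes and 5 to 7 members, and for SSTC3 6125 to 6718 genes and 7 to 8 members. With DESeq2, Bid missed the threshold for SSTC3 (adjusted p = 0.148) and overexpression (0.122), and Bcl2 for knockdown (0.145). Library totals in place of TMM factors lost Bid for SSTC3 (0.0647), and the fit of all 12 libraries called Bmf lower with knockdown (−0.86, adjusted p = 0.0276). The cause was not tested. Same-numbered replicates did not deviate together (correlations of −0.02, 0.003 and −0.02). No pairing by number was thus seen, although with so few libraries these correlations cannot exclude it. A replicate block gave 7303, 1768 and 8066 genes and 8, 3 and 6 members for SSTC3, overexpression and knockdown, the added member being Bcl2l1 (adjusted p = 0.0425). Depth limits Bmf and Pmaip1 in the libraries labelled MEF.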
